A study of Mus musculus with 11 samples.

Results

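The proteasome genes of the mouse heart were followed through 4 groups of mice in RNA sequencing of whole cardiac tissue. A gene was taken as a member when it was annotated as protein-coding and its mouse symbol began with Psma, Psmb, Psmc, Psmd, Psme or Psmf, which gave 46 of the 35584 genes in the deposited table of normalised counts (21565 of them protein-coding). By role, 8 members encode the alpha ring of the core, 7 the constitutive beta ring and 4 the tissue-restricted beta subunits. Another 6 encode the ATPases of the regulatory particle, 11 its other subunits, 3 the chaperones that assemble it, and 6 the alternative activators and an inhibitor. The last member, Psmc3ip, is a recombination factor that shares only the start of its symbol with the subunits. Of the 46, 44 had a mean of at least 10 normalised counts and were tested, and Psma8 and Psmb11 did not reach it.

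All hearts came from male mice aged 8 to 12 weeks kept under specific pathogen-free conditions. WT mice (n = 3 libraries) received diphtheria toxin at 0.01 µg per g of body weight, 3 times a week over 3 weeks, and served as the control. Macrophage-depleted mice (n = 3) carried the CD169-DTR allele, which places a diphtheria toxin receptor in cells that express CD169, and received the same toxin, with cardiac macrophages depleted for 21 days. Mertk-KO mice (n = 2) lacked Mertk, a receptor with which macrophages take up dying cells and debris, and LXR-DKO mice (n = 3), labelled LxRαβ DKO, lacked both liver X receptors. The labels state toxin only for the CD169-DTR and WT mice, so toxin and genotype cannot be told apart in the comparisons of Mertk-KO or LXR-DKO with WT, nor can the CD169-DTR allele and depletion in Macrophage-depleted mice. Whether every library came from its own animal is not stated, and the p-values therefore reflect no more than library-to-library spread.

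The proteasome is the protease that degrades proteins tagged with ubiquitin. Its barrel-shaped core has outer alpha rings, which gate the entry, and inner beta rings, in which Psmb5, Psmb6 and Psmb7 encode the constitutive catalytic subunits. A regulatory particle caps the core, recognises ubiquitin, and unfolds and feeds in the substrate with its ring of ATPases. In immune cells, and in many other cells under interferon, Psmb8, Psmb9 and Psmb10 encode subunits that take the places of Psmb5, Psmb6 and Psmb7 and form the immunoproteasome, which makes peptides for presentation on MHC class I. Interferon also raises the PA28 activator, whose alpha and beta chains are encoded by Psme1 and Psme2. In heart muscle the proteasome turns over contractile proteins and removes damaged ones.

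Libraries held 10938600 to 20722295 estimated reads, and 3 reads, the limit that a count of 0 allows, were worth 2.12 to 4.22 normalised counts. Mitochondrial transcripts made up 31.4% to 36.5% of them. The 6 cardiomyocyte markers were high in all 11 libraries (Myh6, the alpha myosin heavy chain, 314263 to 428147 normalised counts). The liver X receptor genes were low in the LXR-DKO libraries (Nr1h3 25.9 to 29.0 normalised counts, against 145 to 177 in the other libraries). Siglec1, which encodes CD169, was at 53.4 to 64.3 in WT and at 33.8, 2.12 and 0.719 in the Macrophage-depleted libraries 1, 2 and 3, so the first of these kept part of the signal. Mertk was at 75.7 and 89.4 in the libraries labelled Mertk-KO, below the WT range of 130 to 147 but within the Macrophage-depleted range of 75.4 to 125, and the labels do not name the deleted part of the gene. The library Mertk-KO 2 stood apart from all others in the immunoproteasome genes described next. The fitted differences of those genes in Mertk-KO against WT, and their ratio tests, are given with and without it.

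On the TPM scale, which allows levels of different genes to be compared, the constitutive proteasome was abundant in WT hearts. The WT means of the 31 constitutive subunits of core and regulatory particle ran from 30.7 TPM (Psmd14, the deubiquitinase of the lid) to 140 TPM (Psmc3, an ATPase), with a median of 73.9 TPM, beside a median of 9.14 TPM over the 12303 genes with a mean of at least 1 TPM. The 7 constitutive beta genes lay close together at 85.5 to 128 TPM, and the 7 constitutive alpha genes at 38.8 to 103 TPM. The 3 assembly chaperones, which bind the ATPases during assembly and leave the finished particle, were much lower at 7.48 to 11.4 TPM. Of the immunoproteasome genes, Psmb10 was highest in WT (34.5 ± 0.233 TPM, SD, n = 3), followed by Psmb8 (12.7 ± 2.14) and Psmb9 (8.53 ± 0.62). Their constitutive counterparts Psmb7 (128 ± 2.60 TPM), Psmb5 (97.9 ± 6.56) and Psmb6 (127 ± 4.51) were several times higher in the same libraries. Psma8, the alpha subunit of the testis, was at 0.479 ± 0.115 TPM, and Psmb11, the beta subunit of thymic cortical epithelium, at 0.0526 ± 0.0515 TPM. In whole tissue, fewer cells of a type and less RNA per cell cannot be told apart.

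The immunoproteasome genes were high in a single heart library. Psmb8 (17:34197721-34201454, GRCm38, GENCODE M21 annotation, plus strand), which encodes the beta 5i subunit, was measured at 143, 138 and 163 normalised counts in WT hearts, 148, 157 and 176 in the Macrophage-depleted, 154, 139 and 137 in the LXR-DKO, and 196 and 901 in the Mertk-KO libraries. Psmb9 (17:34181987-34187764, minus strand), encoding beta 1i, had 89.0, 90.1 and 85.8 in WT, 82.3, 111 and 119 in Macrophage-depleted, 95.0, 84.5 and 95.7 in LXR-DKO, and 106 and 649 in Mertk-KO. Psmb10 (8:105935735-105938444, minus strand), encoding beta 2i, had 370, 386 and 377 in WT, 441, 320 and 337 in Macrophage-depleted, 386, 454 and 425 in LXR-DKO, and 485 and 1494 in Mertk-KO. Mertk-KO 2 was the highest library for all 3 genes, while Mertk-KO 1 was above every WT library for all 3, within the range of the other groups for Psmb9 and just above it for Psmb8 and Psmb10. Mertk-KO 2 was 4.57-fold above Mertk-KO 1 for Psmb8, 6.10-fold for Psmb9 and 3.08-fold for Psmb10, on values with 1 added. These ratios are between 2 libraries of 1 group and carry no test.

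**Figure D1:**
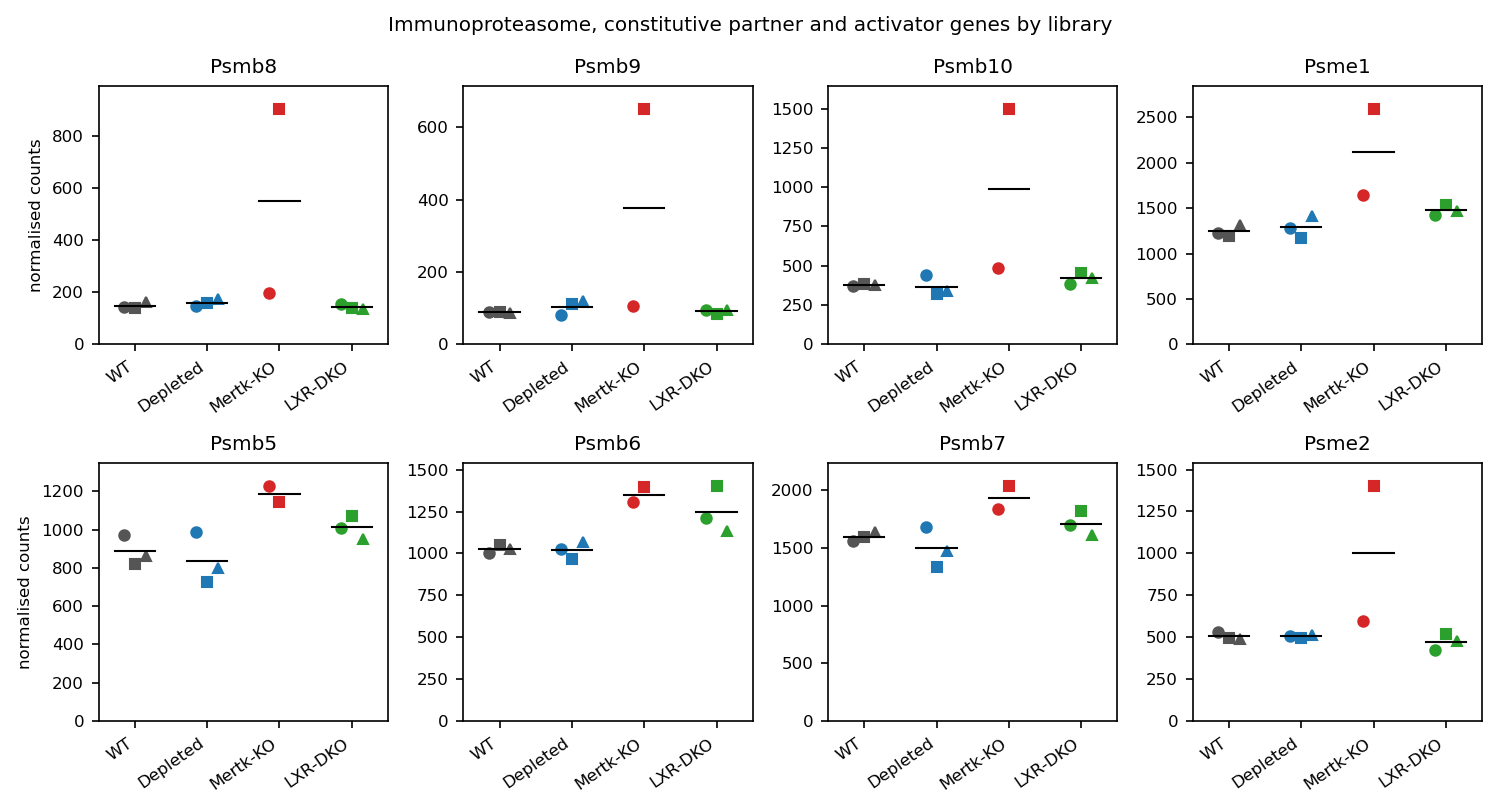
Normalised counts (vertical axes, linear from 0) of 8 proteasome genes in each library of the 4 groups; circles, squares and triangles are replicates 1, 2 and 3, and black lines are group means. Mertk-KO 2 (red square) lies far above all other libraries for Psmb8 (901), Psmb9 (649), Psmb10 (1494), Psme1 (2588) and Psme2 (1402), but not for Psmb5 (1142), Psmb6 (1398) or Psmb7 (2039).

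The PA28 genes followed the same libraries. Psme1 (14:55578123-55581529, plus strand), the alpha chain, had 1224, 1196 and 1313 normalised counts in the WT hearts, 1287, 1177 and 1414 in Macrophage-depleted, 1423, 1533 and 1475 in LXR-DKO, and 1642 and 2588 in Mertk-KO. Psme2 (14:55587441-55591113, minus strand), the beta chain, had 530, 496 and 487 in WT, 506, 495 and 514 in Macrophage-depleted, 421, 518 and 476 in LXR-DKO, and 597 and 1402 in Mertk-KO. Mertk-KO 2 was the highest library for both, and Mertk-KO 1 was the next highest. The excess of Mertk-KO 2 over Mertk-KO 1 was 1.58-fold for Psme1 and 2.35-fold for Psme2. Psme3, which encodes the nuclear gamma form of PA28, had 724 to 739 in WT and 827 and 795 in Mertk-KO, with Mertk-KO 2 below Mertk-KO 1. Among the 44 members tested, 5 were at least 2-fold higher in Mertk-KO 2 than in Mertk-KO 1 (Psmb8, Psmb9, Psmb10, Psme2 and the low Psmc3ip, at 38.1 and 16.4), where 6.91% of all genes tested were. The first 4 of these were also at least 2-fold above the highest of the other 10 libraries, where 0.843% of all genes tested were.

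Between groups, Psmb8 was at 549 ± 498 normalised counts in Mertk-KO (SD, n = 2) and 148 ± 13.5 in WT (n = 3), a log2 fold change of 1.50 (SE 0.43, limma adjusted p = 0.0486). Psmb10 was at 989 ± 714 against 378 ± 7.97 (log2 fold change 1.17, SE 0.33, limma adjusted p = 0.0469), and Psme1 at 2115 ± 669 against 1244 ± 61.2 (0.73, SE 0.15, limma adjusted p = 0.0205). These 3 genes passed the threshold, beside 3.38% of all genes tested that rose. Every Mertk-KO library was above every WT library for each of them, as for 21.4% of all genes tested. Psmb9 had a larger fitted difference with a larger error (1.56, SE 0.51, limma adjusted p = 0.0725) and Psme2 fell just short of the threshold (0.86, SE 0.25, limma adjusted p = 0.0510), so neither was called. The SEs pool 1 variance per gene over all 4 groups, so they do not fully carry the wider spread of the 2 Mertk-KO libraries. Fitted on WT and Mertk-KO alone, or with weights per library, 0 members were called (0.0072% and 0.0864% of all genes tested). With 1 Mertk-KO library left out, the remaining library is assumed to vary like the other groups. Without Mertk-KO 2 the fitted differences fell to 0.41 for Psmb8, 0.36 for Psmb10, 0.26 for Psmb9, 0.24 for Psme2 and 0.40 for Psme1. Without Mertk-KO 1 they were 2.60 for Psmb8, 1.98 for Psmb10, 2.86 for Psmb9, 1.47 for Psme2 and 1.06 for Psme1. Over 24 alternative settings the call was kept in 7 for Psmb8 (limma adjusted p from 1.74e-06 to 0.186), in 7 for Psmb10 (2.03e-05 to 0.171) and in 18 for Psme1 (0.000141 to 0.105).

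The balance between the immunoproteasome and constitutive catalytic genes does not depend on scaling between libraries. The log2 ratio of Psmb8 to Psmb5 was -2.57 ± 0.18 in WT, -2.37 ± 0.31 in Macrophage-depleted, -2.81 ± 0.12 in LXR-DKO, and -2.64 and -0.34 in the Mertk-KO libraries. The ratio of Psmb9 to Psmb6 was -3.62 in Mertk-KO 1 and -1.11 in Mertk-KO 2, beside -3.52 ± 0.04 in WT. The ratio of Psmb10 to Psmb7 was -1.92 in Mertk-KO 1 and -0.45 in Mertk-KO 2, beside -2.08 ± 0.04 in WT. Mertk-KO 1 therefore lay among the other groups for the first 2 ratios and at their upper edge for the third, and only Mertk-KO 2 lay outside them. Over the 4 groups the exact permutation tests gave p = 0.121, 0.102 and 0.0248 for the 3 ratios in this order, with Benjamini-Hochberg adjusted p = 0.121, 0.121 and 0.0744 (92400 assignments, smallest possible p 6.49e-05), so none of the 3 passed 0.05. Without Mertk-KO 2 the adjusted p of these exact permutation tests was 0.364, 0.364 and 0.512. Without Mertk-KO 1, when the Mertk-KO arm is the single library Mertk-KO 2, it was 0.0182, 0.0182 and 0.0718.

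In TPM, the 3 immunoproteasome genes made up 13.2% to 14.3% of the 6 catalytic genes in WT, 14.1% to 14.9% in Macrophage-depleted and 13.1% to 15.6% in LXR-DKO. The share was 14.2% in Mertk-KO 1 and 38.8% in Mertk-KO 2. Within Mertk-KO 2, Psmb10 reached 50.1% of Psmb10 plus Psmb7, Psmb8 35.7% of Psmb8 plus Psmb5, and Psmb9 25.5% of Psmb9 plus Psmb6. The higher share came with no lower constitutive level, since Psmb5, Psmb6 and Psmb7 were at 121, 167 and 158 TPM there and at 93.0 to 105, 124 to 132 and 125 to 131 TPM in WT.

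**Figure D2:**
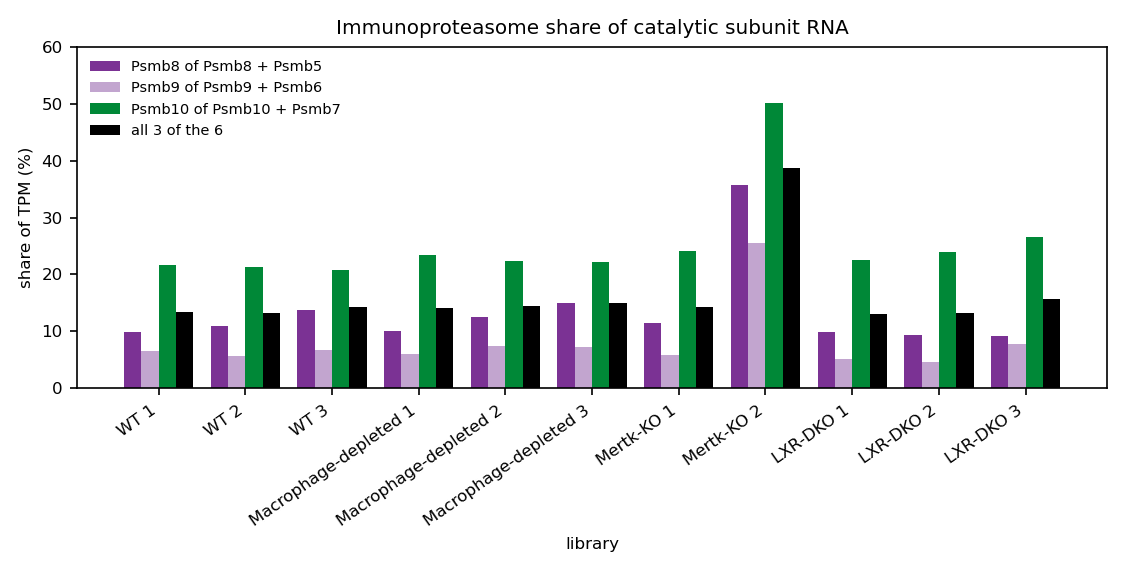
Share of TPM (%, vertical axis) that each immunoproteasome gene takes of the sum with its constitutive counterpart, and that all 3 take of the 6 genes (black), in each of the 11 libraries; each bar is 1 library and has no error bar. The black bars lie between 13.1% and 15.6% in 10 libraries and at 38.8% in Mertk-KO 2.

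The upstream sequences of these genes were searched for short motifs, because interferon acts on promoters through the ISRE, searched as GAAA, any 2 bases, GAAA, and the GAS element, searched as TTC, any 3 bases, GAA, on both strands. Sequences (250 bases before to 50 after each start) are RefSeq's on GRCm38.p6 and covered 39 of the 46 members. The ISRE letters stood in 4 of 39 members (10.3%: Psme1, Psmd9, Psmb3 and Psmd4) and in 3.99% of all 27025 genes, and the GAS letters in 2 of 39 (5.13%: Psmb8 and Psmd2) and in 9.55% of all genes. Sites in genes that were high in Mertk-KO 2 are shown first, as 30 bases with the motif in capitals, the last being the CCAAT box (letters CCAAT on either strand, found in 38.5% of members and 41.1% of all genes) next to the RefSeq start of Psmb9.
Psmb8 GAS site, chr17:34198088-34198117, + strand: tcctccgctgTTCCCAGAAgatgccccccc
Psme1 ISRE site, chr14:55578493-55578522, + strand: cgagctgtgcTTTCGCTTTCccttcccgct
Psmb9 CCAAT site, chr17:34187321-34187350, - strand: gcgcagccgctgATTGGaaagccgagcccc
The Psmb8 site begins 97 bases before the RefSeq start and the Psme1 site 9 bases after it, where the letters lie on the opposite strand. All 3 sites lie within the GENCODE bounds of their own genes. All 250 bases before the RefSeq starts of Psmb8 and Psmb9 lie in annotated exons, and which gene those exons belong to was not checked. The antioxidant response letters TGA, any 4 bases, GCA, bound by Nrf family factors that raise proteasome genes, stood in 5 of 39 members (12.8%) and in 14.7% of all genes, among them Psmb8, 23 bases after its RefSeq start. No printed site overlaps another motif.
The upstream stretches of Psmb10 and Psme2, which were also high in Mertk-KO 2, and of Psmb6, whose 2 Mertk-KO libraries were alike, held none of the motifs and are shown as far as they lie outside annotated exons.
Psmb10, chr8:105938445-105938642, - strand: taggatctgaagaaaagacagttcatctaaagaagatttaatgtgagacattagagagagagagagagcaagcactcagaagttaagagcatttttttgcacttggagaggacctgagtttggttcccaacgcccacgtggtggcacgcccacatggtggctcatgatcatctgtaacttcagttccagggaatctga
Psme2, chr14:55591114-55591351, - strand: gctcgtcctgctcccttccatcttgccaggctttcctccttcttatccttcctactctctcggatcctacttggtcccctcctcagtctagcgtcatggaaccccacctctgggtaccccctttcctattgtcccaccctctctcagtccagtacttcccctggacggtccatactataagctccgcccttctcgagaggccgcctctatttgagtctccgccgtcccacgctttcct
Psmb6, chr11:70525107-70525356, + strand: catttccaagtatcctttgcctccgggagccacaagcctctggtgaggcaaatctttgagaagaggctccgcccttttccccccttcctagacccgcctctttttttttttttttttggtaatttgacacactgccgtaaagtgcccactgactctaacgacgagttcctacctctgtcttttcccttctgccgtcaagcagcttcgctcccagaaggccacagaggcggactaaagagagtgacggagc
A match describes letters only, and the absence of one says only that these letters are not in this window.

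Genes that interferon is known to raise, and genes of MHC class I presentation, were also high in Mertk-KO 2. Igtp, an interferon-induced GTPase, had 12462 normalised counts in Mertk-KO 2, 264 in Mertk-KO 1 and 135 to 390 in the 9 libraries of the other groups. Iigp1, a related GTPase, had 16197 in Mertk-KO 2 but 352 in Mertk-KO 1, below its WT values of 753 to 981. In the median of 16 interferon genes, Mertk-KO 1 was 0.28 and Mertk-KO 2 2.18 above the WT mean on the log2 scale, and in the median of 11 MHC class I genes they were 0.19 and 1.42 above it. Tap1, which carries peptides into the endoplasmic reticulum and lies next to Psmb9 on the other strand, had 1676 normalised counts in Mertk-KO 2, 215 in Mertk-KO 1 and 192 to 203 in WT. Without strand in the counting, which the sources used here do not state, reads of Psmb9 and Tap1 where they overlap cannot be told apart, and the same holds for Psmb8 with Gm20496, Psmb10 with Gm16156, Psme1 with Emc9 and Psmb7 with Nek6.

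Against WT, 3 of the 16 interferon genes rose in Mertk-KO in limma (Irf1 1.31, Irf9 0.97 and Tgtp1 2.37 as log2 fold changes, adjusted p = 0.0281, 0.0416 and 0.0254), and 12 had an unadjusted p below 0.05, beside 3.38% of all genes tested that rose and 28.6% with such a p. Of the 11 MHC class I genes, 4 rose (H2-K1 1.67, B2m 1.40, H2-D1 1.36 and Tap2 0.89, limma adjusted p = 0.0346, 0.0469, 0.0220 and 0.0316). No gene of either list passed in Macrophage-depleted or LXR-DKO against WT. There 1 and 0 interferon genes and 0 and 1 MHC class I genes had an unadjusted limma p below 0.05 (7.53% and 11.5% of all genes tested). In LXR-DKO 14 of the 16 interferon genes and 7 of the 11 MHC class I genes were fitted lower. Every LXR-DKO library was below every WT library for 6 and 4 of them (10.7% of all genes tested), and above for 0 and 1 (12%). The list medians, 1.17 and 0.89 in Mertk-KO against WT, stand beside -0.01 for all genes tested. Without Mertk-KO 2 the medians were 0.28 and 0.19. H2-D1, H2-K1, B2m and Tap2 were then at 0.64, 0.58, 0.38 and 0.36, and Irf1, Tgtp1 and Irf9 at 0.57, 1.21 and 0.40. Iigp1 was then lower (-1.31). At that setting the Mertk-KO arm is a single library.

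**Figure D3:**
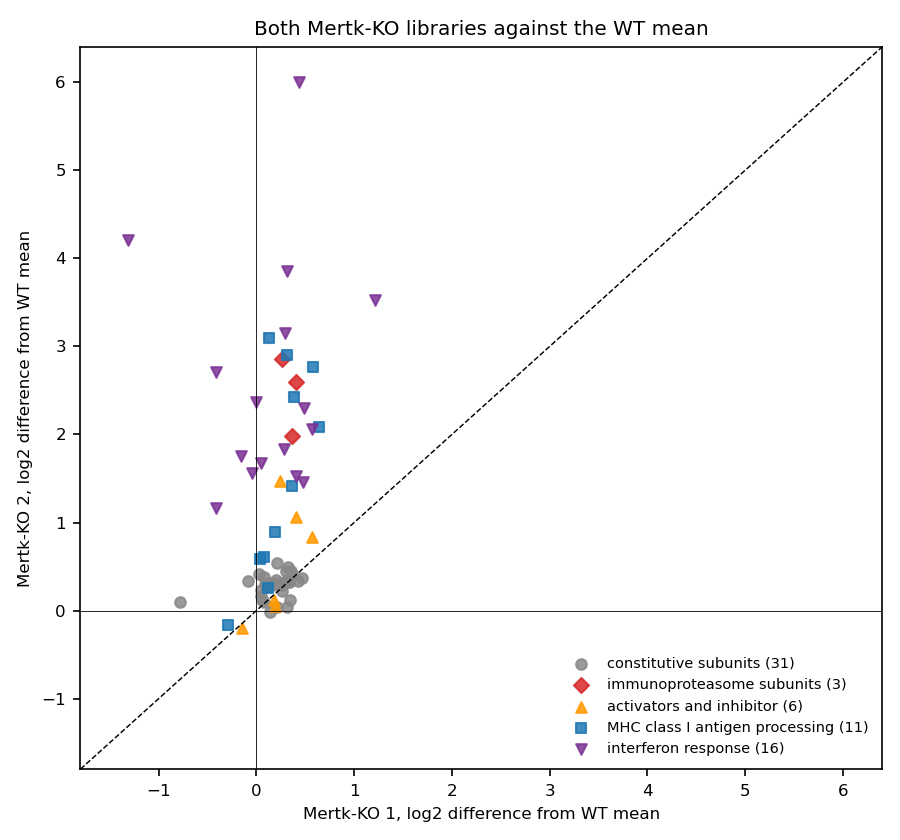
Log2 difference from the WT mean of log2(normalised count + 1) in Mertk-KO 1 (horizontal) and Mertk-KO 2 (vertical) for 31 constitutive subunits, 3 immunoproteasome subunits, 6 activators and inhibitor, 11 MHC class I genes and 16 interferon genes; the dashed line marks equal values. The immunoproteasome genes lie at 0.26 to 0.41 on the horizontal axis and 1.98 to 2.86 on the vertical, among the interferon and MHC class I genes, and most constitutive subunits lie near the line.

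Markers of immune cells were read beside these values. The 12 macrophage markers summed to 4089 to 4837 normalised counts in the WT hearts, 1305 to 3013 in Macrophage-depleted and 3342 to 4348 in LXR-DKO. Their sum was 5006 in Mertk-KO 1 and 7136 in Mertk-KO 2, of which Lyz2 made up 1810 and 2594. None of the 12 was at 0 in any library. Every Mertk-KO library was above every WT library for 6 of the 12 (21.4% of all genes tested). Every one was below for 2 (21.1%), Cd163 (198 and 153, WT 206 to 239) and Mrc1 (335 and 388, WT 433 to 522). The 10 T and NK cell markers summed to 34.0 to 49.1 in WT, 39.1 to 65.2 in Macrophage-depleted, 29.3 to 45.9 in LXR-DKO, 41.0 in Mertk-KO 1 and 123 in Mertk-KO 2, where Gzma, a granule protease, made up 33.4 and the CD3 chains Cd3e, Cd3d and Cd3g were at 3.23, 2.16 and 5.39, near the floor of 3 reads. The 4 B cell markers summed to 54.4 to 56.1 in WT and to 55.5 and 41.0 in Mertk-KO 1 and 2. Of the T and NK markers, Cd3e, Cd3g, Gzmb and Ncr1 were at 0 in at least 1 WT library, and none was at 0 in Mertk-KO 2. The part that such cells have in the immunoproteasome values was not tested. The macrophage sum was lowest, at 1305, in Macrophage-depleted 3, where Psmb8, Psmb9 and Psmb10 were at 176, 119 and 337.

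The constitutive core was modestly higher in both Mertk-KO libraries. In limma, 12 of the 44 members tested rose in Mertk-KO against WT and 0 fell, beside 3.38% of all genes tested that rose and 5.89% that fell. The members' median log2 fold change was 0.23, with 40 of 44 fitted higher, beside -0.01 and 48.3% for all genes tested, and 24 had an unadjusted p below 0.05 (28.6% of all genes tested). In 31 members every Mertk-KO library was above every WT library (21.4% of all genes tested), and in 1, Psme4, every one was below (21.1%). Of the 12, 9 belong to the 31 constitutive subunits, whose median was also 0.23, and the other 3 are Psmb8, Psmb10 and Psme1.

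All 7 constitutive beta genes were higher in both Mertk-KO libraries than in any WT library (21.4% of all genes tested), with a median log2 fold change of 0.39. Of these, 3 rose (3.38% of all genes tested). Their median transcript was 1183 bases long, and the trend with transcript length is described below. Psmb1, a structural beta subunit, had 984, 1008 and 1020 normalised counts in WT hearts and 1253 and 1416 in Mertk-KO (log2 fold change 0.41, SE 0.08, limma adjusted p = 0.0192). Psmb6 (11:70525367-70527858, plus strand), the caspase-like catalytic subunit, had 1001, 1052 and 1024 in WT and 1306 and 1398 in Mertk-KO (0.40, SE 0.10, limma adjusted p = 0.0308). Psmb3, another structural subunit, had 701, 680 and 744 in WT and 909 and 944 in Mertk-KO (0.39, limma adjusted p = 0.0468). For these 3 genes Mertk-KO 2 was 1.04-fold to 1.13-fold above Mertk-KO 1, far from the 3.08-fold to 6.10-fold of the immunoproteasome genes. Psmb5 (14:54614119-54618022, minus strand), the chymotrypsin-like catalytic subunit, had 973, 821 and 864 in WT and 1228 and 1142 in Mertk-KO and just missed the threshold (0.42, SE 0.12, limma adjusted p = 0.0534). Psmb7 (2:38588036-38644087, minus strand), the trypsin-like one, had 1562, 1593 and 1642 in WT and 1837 and 2039 in Mertk-KO (0.28, SE 0.10, limma adjusted p = 0.0966).

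Of the 7 alpha genes tested, 2 rose in Mertk-KO against WT (3.38% of all genes tested) and the median was 0.22. Psma6 had 1019, 1069 and 1029 normalised counts in WT hearts and 1308 and 1307 in Mertk-KO (log2 fold change 0.33, limma adjusted p = 0.0240), and Psma7 had 924, 905 and 950 in WT and 1142 and 1264 in Mertk-KO (0.37, limma adjusted p = 0.0242). For both genes every Mertk-KO library was above every WT library (21.4% of all genes tested). Psma2 was higher in Mertk-KO 2 (1085) than in Mertk-KO 1 (864) and WT (727 to 765) and was not called (0.37, limma adjusted p = 0.0556). Psma5 had 508 to 532 in WT and 570 and 645 in Mertk-KO (0.22, limma adjusted p = 0.166).

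In the regulatory particle, 1 of 6 ATPases and 3 of 11 other subunits rose in Mertk-KO against WT, beside 3.38% of all genes tested. The ATPase Psmc4 had 660, 655 and 704 normalised counts in WT hearts and 848 and 846 in Mertk-KO (log2 fold change 0.33, limma adjusted p = 0.0453). Psmd8, a lid subunit, had 945, 974 and 980 in WT and 1301 and 1226 in Mertk-KO (0.39, SE 0.09, limma adjusted p = 0.0244). The lid subunits Psmd13 (0.32, limma adjusted p = 0.0445) and Psmd7 (0.29, limma adjusted p = 0.0487), the latter the partner of the deubiquitinase Psmd14, completed the set. Psmd4, a ubiquitin receptor, had 886 to 913 in WT and 1079 and 1047 in Mertk-KO and was not called (0.24, limma adjusted p = 0.0917). The ATPases Psmc3 (0.25), Psmc5 (0.23) and Psmc1 (0.19) had limma adjusted p = 0.0562, 0.161 and 0.195.

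The ATPase Psmc6 went the other way in 1 library, which is named here after its values were seen. It had 650 normalised counts in Mertk-KO 1, against 1194 in Mertk-KO 2 and 1047 to 1215 in the 9 libraries of the other groups. Its groups overlapped, and it was not called (log2 fold change -0.34, limma adjusted p = 0.234). The other 5 ATPase genes were within or above their WT ranges in that library, Psmc5 at 1030 against 940 to 1045.

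The assembly chaperones and the remaining activators were not called in Mertk-KO against WT. Psmd9 had 190 to 217 normalised counts in WT hearts and 244 and 224 in Mertk-KO (log2 fold change 0.19), Psmd5 209 to 239 and 243 and 211 (0.05), and Psmd10 117 to 127 and 118 and 124 (-0.02), with limma adjusted p = 0.415, 0.830 and 0.930. Psme4, the gene of a large activator of the core, had 5319 to 5544 in WT and 4875 and 4718 in Mertk-KO (-0.17, limma adjusted p = 0.271). Psmf1, the inhibitor PI31, had 238 to 270 in WT and 292 and 265 in Mertk-KO. Psme2b, a near copy of Psme2 whose reads could be shared with it, had 14.2 to 24.9 in WT and 30.2 and 36.5 in Mertk-KO (0.71, limma adjusted p = 0.245). Psmc3ip had 20.1 to 30.2 in WT and 16.4 and 38.1 in Mertk-KO (-0.01, limma adjusted p = 0.988). The 2 members that were not tested stayed near the floor of 3 reads: Psma8 had 7.17 to 12.8 normalised counts in WT hearts and 1.33 and 8.62 in Mertk-KO, and Psmb11 had 0 to 4.56 over all 11 libraries.

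**Figure D4:**
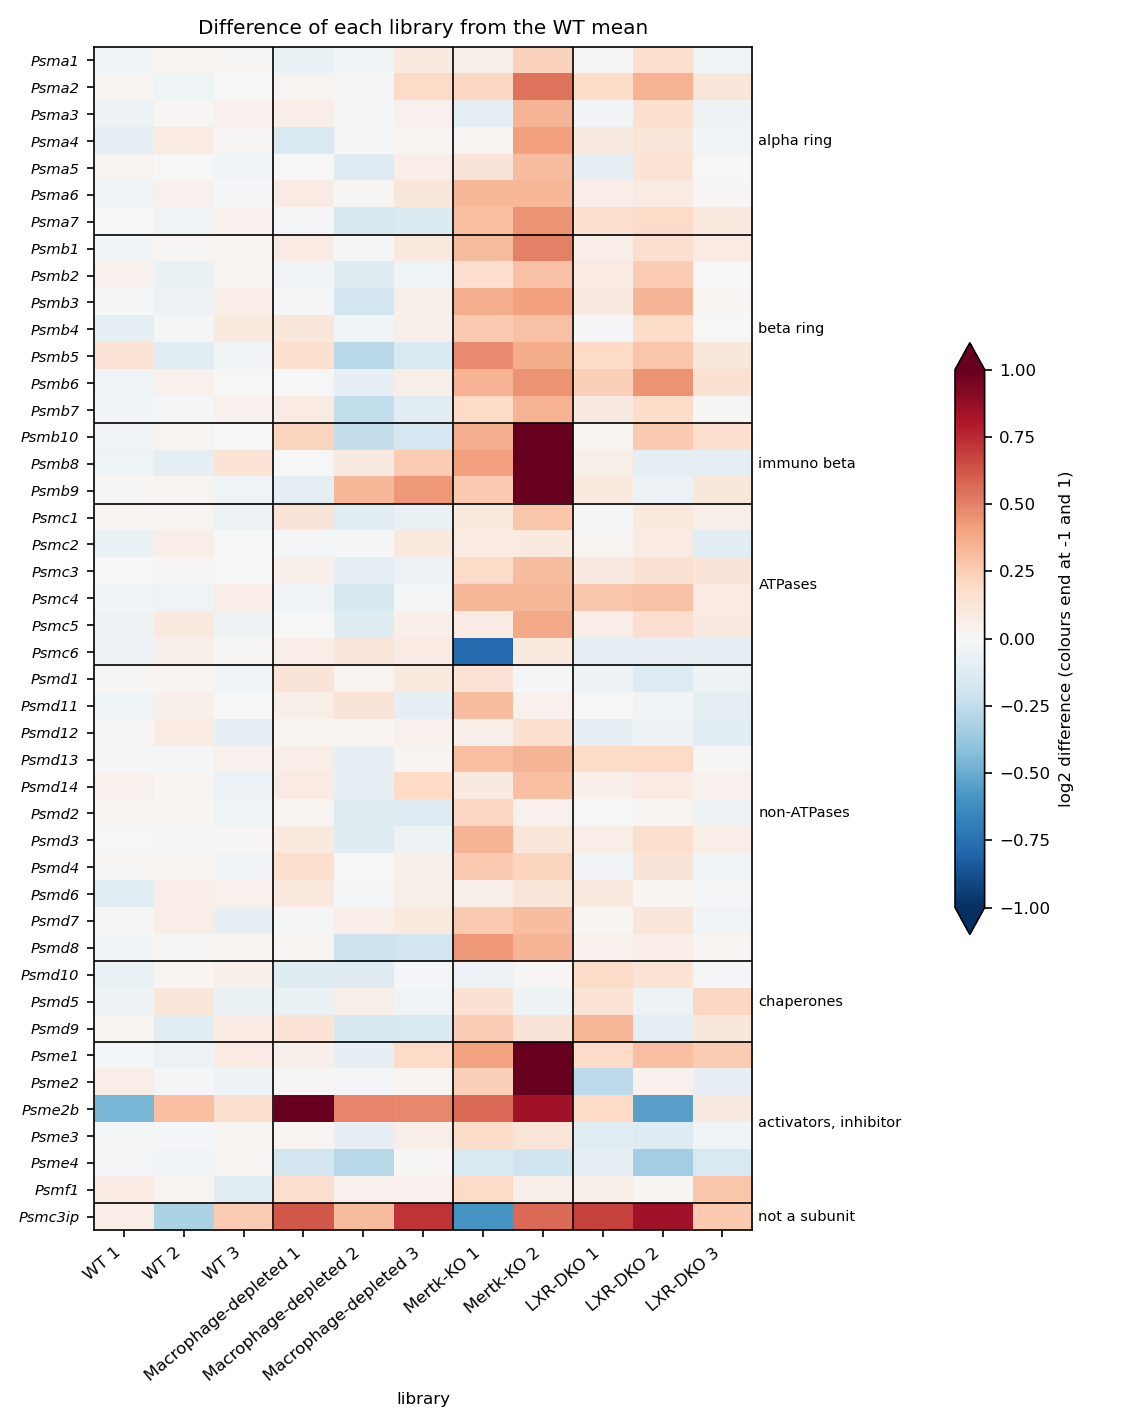
Log2 difference of each library from the WT mean for the 44 tested members (vertical axis, ordered by role) in the 11 libraries (horizontal axis); the colour scale ends at -1 and 1, and higher values take its darkest red. Most core genes are pale red in both Mertk-KO libraries, the 3 immunoproteasome genes with Psme1 and Psme2 are darkest in Mertk-KO 2, the low Psme2b is as dark in Macrophage-depleted 1, and Psmc6 is blue in Mertk-KO 1.

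The count of 12 rested on every WT library, as did the 9.27% of all genes tested that were called in limma. Without WT 1, WT 2 or WT 3 the count was 0, beside 1.17%, 1.2% and 0.504% of all genes tested. The members' median was then 0.23, 0.25 and 0.23, with 21, 21 and 20 members below an unadjusted limma p of 0.05. Without Macrophage-depleted 1 or 3 the count was 7 or 6 (7.52% and 6.44% of all genes tested). Without LXR-DKO 1 it was 5 (4.56%). With a single Mertk-KO library left, the members' median was 0.31 without Mertk-KO 1 and 0.21 without Mertk-KO 2. Fitted on WT and Mertk-KO alone the count was 0 (0.0072%), with 22 members below an unadjusted p of 0.05, and voom gave 6 (6.9%). Short transcripts were higher in the Mertk-KO libraries over all genes tested. Spearman rho of difference against transcript length was -0.26 in Mertk-KO 1 and -0.50 in Mertk-KO 2, and -0.17 and -0.48 over the 44 members. The LXR-DKO libraries 1, 2 and 3 shared this trend, with rho of -0.25, -0.37 and -0.14 over all genes tested. Over the members rho was -0.22, -0.37 and -0.15 there. In the Macrophage-depleted libraries rho was -0.04, 0.22 and 0.06 over all genes tested. These values are a description across genes, which are not independent. The median transcript of a member was 1895 bases long, against 3381 for all genes tested. The call was kept in 19 of the 24 alternative settings for Psmb1, in 16 for Psma6, Psma7 and Psmd8, in 14 for Psmb6, and in 8 or fewer for Psmb3, Psmc4, Psmd13 and Psmd7. The members' median difference from WT was 0.21 in Mertk-KO 1 and 0.31 in Mertk-KO 2. Once each library's trend with length and GC content was removed it was 0.19 and 0.13, beside 0.05 and 0.03 for all genes tested. The constitutive beta genes were then at 0.25 and 0.20, and the non-ATPase subunits of the regulatory particle at 0.19 and 0.03. With that trend removed, 3 members were called, 1 of them among the 12, beside 2.57% of all genes tested. The fitted differences of Psmb8, Psmb10 and Psme1 were 1.36, 0.96 and 0.56 at that setting. The 4 atrial markers summed to 2995 and 1675 normalised counts in Mertk-KO 1 and 2, 3433 to 25595 in WT, 3155 to 6194 in Macrophage-depleted and 1611 to 17491 in LXR-DKO, and their part in the result was not tested.

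No proteasome gene passed the threshold in Macrophage-depleted hearts. In limma 0 of 44 members were called against WT, beside 0.238% of all genes tested, 1 had an unadjusted p below 0.05 (Psme2b; 7.53% of all genes tested did), and voom called 0 and found 0 with an unadjusted p below 0.05. The median log2 fold change was 0.00 for the members and 0.00 for all genes tested, with 24 of 44 and 50.8% fitted higher. The groups did not overlap, with Macrophage-depleted higher, in 4 members (8.51% of all genes tested) and with Macrophage-depleted lower in 0 (8.15%). Psme2b had 59.6, 28.4 and 28.3 normalised counts in Macrophage-depleted and 14.2, 24.9 and 22.4 in WT, with Macrophage-depleted 1 far above the other 2 (limma adjusted p = 0.593). The immunoproteasome genes, which macrophages express, had log2 fold changes of 0.11 for Psmb8 (SE 0.38), 0.22 for Psmb9 (SE 0.46) and -0.06 for Psmb10 (SE 0.29), with limma adjusted p = 0.995, 0.992 and 0.995. These SEs pool 1 variance per gene over all 4 groups, the wide Mertk-KO spread included. Psmb8 was at 160 ± 14.5 normalised counts in Macrophage-depleted and 148 ± 13.5 in WT (SD, n = 3 each). Psmb9 was at 104 ± 19.3 and 88.3 ± 2.22, and Psmb10 at 366 ± 65.4 and 378 ± 7.97. Changes larger than the fitted ones could also go undetected, and a p that misses the threshold does not show equal levels. Psmb5, Psmb6 and Psmb7 were at -0.09, -0.01 and -0.10, and Psme1 and Psme2 at 0.05 and 0.00. Leaving out each library in turn, Macrophage-depleted 1 with its remaining Siglec1 signal included, gave 0 called each time.

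LXR-DKO hearts had no proteasome gene past the threshold either. In limma 0 of 44 members were called in LXR-DKO against WT, beside 0.418% of all genes tested, 3 had an unadjusted p below 0.05 (Psmb6, Psmc4 and Psme4; 11.5% of all genes tested did), and voom called 0 and found 2 with an unadjusted p below 0.05. The median log2 fold change was 0.06, with 34 of 44 fitted higher (50.2% of all genes tested), beside 0.00 for all genes tested. In 11 members every LXR-DKO library was above every WT library (12% of all genes tested) and in 4 every one was below (10.7%). Psmb6 had 1209, 1403 and 1134 normalised counts in LXR-DKO, all above the WT range of 1001 to 1052 (log2 fold change 0.28, SE 0.09, limma adjusted p = 0.289). Psmc4 had 820, 824 and 710, above 655 to 704 in WT (limma adjusted p = 0.364), and Psme4 had 5073, 4247 and 4892, below 5319 to 5544 (limma adjusted p = 0.428). Psmb8, Psmb9 and Psmb10 were at -0.05, 0.05 and 0.15, with SEs of 0.38, 0.46 and 0.29 that again include the Mertk-KO spread. Psmb5 and Psmb7 were at 0.19 and 0.10, and Psme1 and Psme2 at 0.25 and -0.10. The median of the members was 0.07, 0.12 and 0.01 above the WT mean in the 3 LXR-DKO libraries, and 0.02, 0.01 and -0.03 from it with the trend of length and GC content removed.

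**Figure D5:**
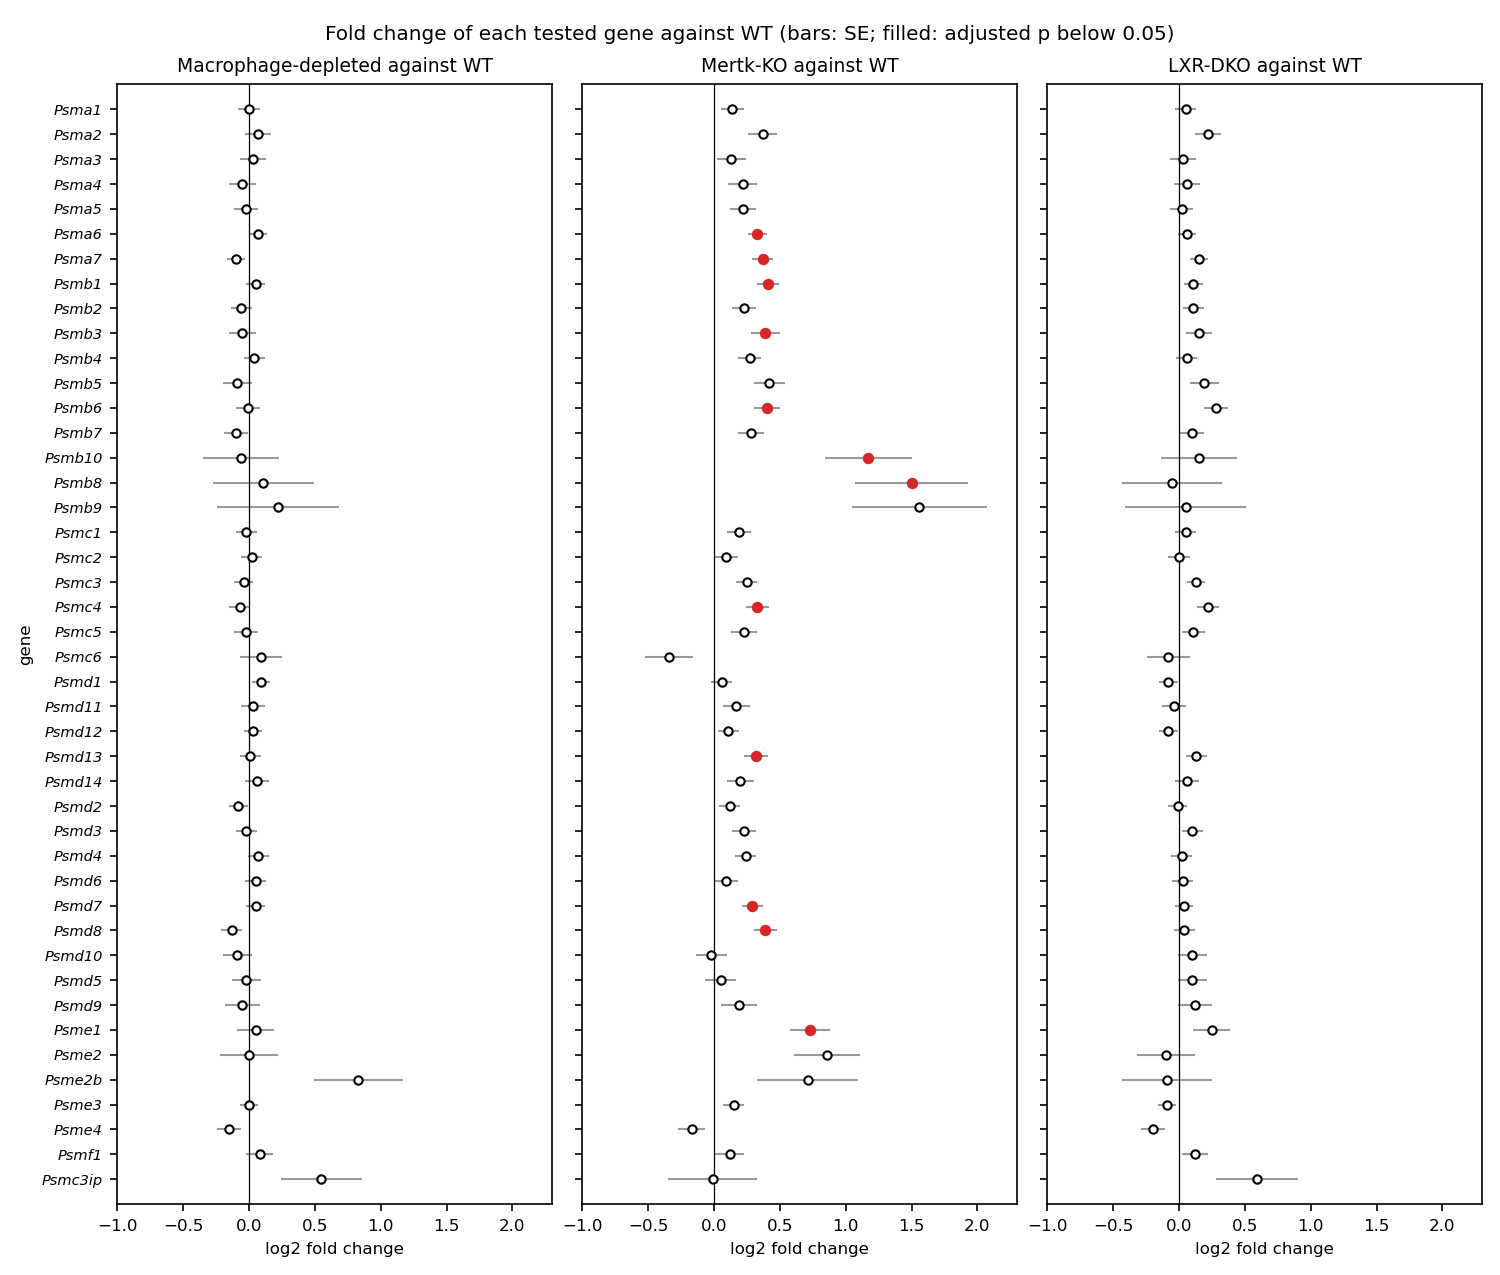
Log2 fold change against WT (horizontal axes) of the 44 tested members in the 3 comparisons; points are limma estimates, bars are 1 SE, and filled red points have an adjusted p below 0.05. The 12 filled points are all in Mertk-KO, with Psmb8 (1.50), Psmb10 (1.17) and Psme1 (0.73) farthest to the right, and the members of the other 2 comparisons centre on 0.00 and 0.06.

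The perturbed groups were also set against each other. These comparisons share libraries with those above, so they are not further evidence. In Macrophage-depleted against Mertk-KO, 16 of 44 members were lower and 0 higher in limma, beside 9.39% and 11.6% of all genes tested, with a median of -0.24 against 0.02 for all genes tested. In 27 members every Macrophage-depleted library was below both Mertk-KO libraries (22.6% of all genes tested). The 16 included 6 of the 7 constitutive beta genes, all but Psmb4. Psmd8 had 977, 833 and 854 normalised counts in Macrophage-depleted and 1301 and 1226 in Mertk-KO (limma adjusted p = 0.00418), Psma7 917, 829 and 841 against 1142 and 1264 (0.00474), and Psmb5 987, 727 and 797 against 1228 and 1142 (0.0166). The groups did not overlap for any of these 3 genes. Without Macrophage-depleted 2 the count was 5 and without Macrophage-depleted 3 it was 9, beside 9.93% and 11.8% of all genes tested. Without Mertk-KO 2 the median was -0.20, and not every member called was then lower in Macrophage-depleted. In Macrophage-depleted against LXR-DKO, limma and voom each called 0 of 44 (3.24% of all genes tested in limma). In both, 8 were below an unadjusted p of 0.05 (20.5% of all genes tested in limma). Without LXR-DKO 3, limma called 2, beside 4.82% of all genes tested. In Mertk-KO against LXR-DKO both again called 0 (2.46% in limma) with 15 below an unadjusted p of 0.05 in both (20.9% of all genes tested in limma). With 1 Mertk-KO library left out, more members were called in both of these comparisons, as were more of all genes tested. The median in Mertk-KO against LXR-DKO was then 0.22 without Mertk-KO 1 and 0.13 without Mertk-KO 2, beside 0.16 with both.

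Genes that work beside the proteasome were read in 5 lists in Mertk-KO against WT, beside the 3.38% of all genes tested that rose and the 5.89% that fell. Their medians ran from -0.17 for the factors that control proteasome gene transcription to 0.31 for the ubiquitin and ubiquitin-activating genes. Of 11 other subunits and assembly factors, 1 rose: Psmg4, a chaperone of the alpha ring, had 55.3, 57.3 and 51.3 normalised counts in WT hearts and 90.3 and 113 in Mertk-KO (log2 fold change 0.88, limma adjusted p = 0.0222). Pomp, the maturation factor of the beta ring, had 1499 in Mertk-KO 2, 815 in Mertk-KO 1 and 748 to 1066 in the other groups, and was not called (0.38, limma adjusted p = 0.208). Of the 6 ubiquitin and ubiquitin-activating genes 2 rose and 1 fell. The polyubiquitin gene Ubb rose (0.36, limma adjusted p = 0.0444) and the activating enzyme Uba6 fell (-0.61, 0.0361). Of 8 ubiquitin ligases of striated muscle, Trim54 rose (0.43, limma adjusted p = 0.0448) and Fbxo32, known as atrogin-1, fell (-0.43, 0.0428), with 2508 to 2654 in WT and 1781 and 2046 in Mertk-KO. Of the 6 genes that control proteasome gene transcription, 0 passed in limma. In this list 2 were below an unadjusted p of 0.05 (Bach1 -0.42 and Ddi2 -0.33), beside 28.6% of all genes tested. Nfe2l1, the main such factor, had 7031 to 7225 in WT and 8064 and 7035 in Mertk-KO. Of 8 shuttle and segregase genes, 0 passed in limma, with 1 below an unadjusted p of 0.05 (28.6% of all genes tested). No gene of these lists passed in limma against WT in Macrophage-depleted or LXR-DKO. The genes with an unadjusted p below 0.05 included Nfe2l2 in Macrophage-depleted (7.53% of all genes tested). In LXR-DKO they included Psmg2, Bach1 and Rps27a (11.5% of all genes tested).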

How the data were processed

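RNA was measured by sequencing in 11 libraries of whole hearts, frozen and extracted with Trizol, with polyA RNA amplified by the Ovation Single Cell kit before Illumina TruSeq library preparation, per the labels' protocols. Per the submitters' processing notes, the tools were CASAVA 1.8.2, cutadapt, RSEM 1.2.20 and kallisto 0.43.1, with the GRCm38 build. Their roles, and whether strand was used, are not stated there. The authors deposited 2 tables whose unit is a normalised signal: normalised counts of 35584 genes, and TPM rescaled between libraries. Judged from the values, the first table gives CPM-like numbers over scaled totals, after 0.5 read was added to every gene. Estimated reads were recovered from it and scaled to the mean total, and since only 58.9% to 62.2% of low values came within 0.01 of a whole read, no count test was run.

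Groups follow the sample titles. limma 3.58.1 with an intensity trend (R 4.3.3) was fitted to log2(normalised count + 1) for the 13884 genes with a mean of at least 10, in 1 model of all 4 groups. Tests are two-sided, p-values were adjusted by Benjamini-Hochberg over all genes tested, and the threshold was 0.05. Fold changes are on this log2 scale, which understates those of low genes. The 3 ratios of immunoproteasome to constitutive genes were tested by an exact permutation test of the F statistic over all assignments of the libraries to groups. The scripts were tested on simulated data. Gene symbols, coordinates and transcript lengths come from GENCODE M21. Per-library values are given for the 8 catalytic and PA28 genes and for up to 4 members of each role with the smallest p against WT. Pathway genes past the threshold are named with few exceptions, and other named genes were chosen after their values were seen. Members and lists were chosen with earlier results of these data known. Shfm1, Paaf1 and Ufd1l of the lists were not matched, and a few list genes are not reported here. Alternatives tried were other pseudocounts, filters and scalings, the TPM table, voom, weights per library, fits on 2 groups, removal of the trend with length and GC content, a replicate block and leaving out each library. Leaving out each Mertk-KO library was extended to the interferon and MHC class I lists after seeing the data.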

Additional observations from a re-analysis of the deposited data

How the results depend on the processing

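The 12 members called in Mertk-KO against WT, all higher, became 6 with no filter on low values, 2 with the TPM table, 0 with only the 2 groups compared, 0 with weights per library, 6 with voom and 3 with the length and GC trend removed. Leaving out 1 library gave 0 to 14. The members' median of 0.23 stayed between 0.21 and 0.31 when 1 library was left out. The share of all genes tested that was called fell from 9.27% as well. At the settings named, in that order, it was 2.38%, 3.07%, 0.0072%, 0.0864%, 6.9% and 2.57%. For Macrophage-depleted against Mertk-KO the count of 16 became 9 with the TPM table, 0 with only the 2 groups compared, 3 with weights per library and 7 with the length and GC trend removed, and 5 to 19 with 1 library left out. There the share of all genes tested fell from 21% to 12.8%, 1.05%, 3.15% and 10.1% at the settings named, in that order. With weights per library, 1 member was called in LXR-DKO against WT and 4 in Macrophage-depleted against LXR-DKO, beside 4.27% and 14.7% of all genes tested. Leaving out 1 library also moved the counts in Macrophage-depleted against LXR-DKO and in Mertk-KO against LXR-DKO, as described above. The median in LXR-DKO against WT was 0.00 with the length and GC trend removed. The cause of these changes was not tested, beyond the fewer samples or genes that some settings hold.

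Fitted with the replicate number as a block, the count in Mertk-KO against WT was 2, beside 2.82% of all genes tested. The ratio of Psmb8 to Psmb5 then had an adjusted p of 0.026 in its permutation test. Of 15 pairs of same-numbered libraries 2 correlated above 0.1, and 3 libraries correlated best with their own number. With groups of 2 or 3 libraries these correlations cannot settle whether the numbers pair the samples. With 1 library left out, the adjusted p of the permutation test ran from 0.0182 to 0.364 for the ratio of Psmb8 to Psmb5, from 0.0182 to 0.364 for Psmb9 to Psmb6 and from 0.0657 to 0.512 for Psmb10 to Psmb7.

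Of 2010 values of 28 named members under the alternatives, 70 changed sign, 0 of them while past the threshold. In Macrophage-depleted against WT, the TPM table gave 0.02 for Psmb10, 0.00 for Psmb6, -0.01 for Psme1 and -0.03 for Psme2, and Psmb6 was 0.01 with weights per library and 0.02 with the length and GC trend removed. That last setting also gave -0.02 for Psmb9 in LXR-DKO against WT, and 0.19 for Psme4 and 0.09 for Psmd10 in Mertk-KO against WT. There Psmd10 was 0.03 with quantile normalization and 0.03 with the TPM table, and Psmc3ip was 0.00 with pseudocount 5, 0.16 with quantile normalization, 0.05 with voom, 0.00 with the replicate block and 0.02 on the per-million scale. With 1 library left out, Psmb8 in LXR-DKO against WT ran from -0.10 to 0.03. In Macrophage-depleted against WT, Psmb10 ran from -0.20 to 0.03, Psmb5 from -0.21 to 0.00, Psmb6 from -0.04 to 0.03, Psme1 from -0.01 to 0.12 and Psme2 from -0.02 to 0.04. In Mertk-KO against WT, Psmd5 ran from -0.05 to 0.15, Psmd10 from -0.06 to 0.01 and Psmc3ip from -0.59 to 0.57. Depth limits Psma8, Psmb11 and the T and NK cell markers, which lie near 3 reads, and 2 Mertk-KO libraries limit every result of that group.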
